A study of Mus musculus with 4 samples.

Results

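The 9 genes of the detoxifying oxidoreductase group were followed through the cOS-pulse: *Nqo1*, *Por*, *Ephx1*, *Cbr1*, *Cbr3*, *Ptgr1*, *Akr1b3*, *Akr1b8* and *Ugdh*. The members were taken by name, as every non-control probe that the array annotates to 1 of these 9 genes, without a threshold on the values. The 9 names were chosen with earlier results of these data known. This gave 11 of the 39429 probes, with 2 probes each for *Ephx1* and *Akr1b3* and 1 for each other gene. All cells were NIH-3T3:Per2-Luc, a mouse fibroblast line that carries luciferase under the *Per2* promoter, and each condition was 1 one-color array of total RNA. The control (0 mM H2O2, labelled 4 h) received fresh medium, and the other 3 arrays carried RNA of cells given the cOS-pulse, 5 mM H2O2 for 10 min, and harvested 4 h, 20 h or 32 h later. The question put to the arrays was how expression with the cOS-pulse differed from that with medium exchange, and whether it differed between 20 h and 32 h. Every time point was set against the same single control, with no control at 20 h or 32 h among the samples analysed here. In ratios of 20 h or 32 h to this control, the pulse and the longer time in culture cannot be told apart. With 1 array per condition there are no replicates, no test was possible and no p-value is given, and array and condition cannot be told apart.

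These enzymes carry reactive carbonyls, quinones and epoxides, many of them products of lipid peroxidation, to forms that can be conjugated and exported. NQO1 reduces quinones directly to hydroquinones. POR, anchored in the endoplasmic reticulum, passes electrons from NADPH to the cytochromes P450, to heme oxygenase and to squalene epoxidase. EPHX1 hydrolyses epoxides to diols, CBR1 and CBR3 are short-chain dehydrogenases that reduce carbonyls, PTGR1 reduces the double bond of unsaturated aldehydes, ketones and prostaglandin metabolites, and AKR1B3 (aldose reductase) and AKR1B8 are aldo-keto reductases. UGDH makes UDP-glucuronic acid, the donor for glucuronidation and for hyaluronan. *Nqo1* is a textbook target of the transcription factor NRF2, and several of the others are listed among its targets.

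The 4 highest genes at 4 h were *Por*, *Ptgr1*, *Cbr3* and *Ephx1*, *Nqo1* was the member with a 2-fold difference late, and *Cbr1* is the paralog of *Cbr3*. Their probes are shown because each value for these genes is the signal of a single stretch of transcript. The lines give the first 30 of the 60 bases, 5′ to 3′ as the array lists them, in lower case without marked bases, beside the mm9 position of the whole probe.
Por A_55_P2029574, chr5:136211122-136211181, plus strand: gccccaacatgtgattttgaatgagtgtaa
Ptgr1 A_51_P444437, chr4:58979428-58979487, minus strand: gctttttaccattcagtgcaagtgtatact
Cbr3 A_51_P481159, chr16:93691120-93691179, plus strand: tctgcaaactcagtctgaacaattcgctgt
Cbr1 A_66_P108152, chr16:93610453-93610512, plus strand: gataaaaaagttgaaccatggtgaacccaa
Ephx1 A_55_P2002577, chr1:182924124-182924183, minus strand: tttcaagaaacatttattccctgacccctc
Ephx1 A_55_P2002578, chr1:182919689-182919748, minus strand: tcgccccactgcatagctgtgttaagctac
Nqo1 A_51_P424338, chr8:109912440-109912499, minus strand: taggtcatttatgcaatattcgccattttc

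The *Ephx1* probes started at base 831 and base 1603 of the transcript that the array names, and thus read separate stretches of it. The *Akr1b3* probes started at bases 516 and 1238 on the minus strand of chromosome 6, at chr6:34260573-34260632 (A_55_P2174953) and chr6:34253930-34253982 (A_52_P10041). The *Akr1b8* probe (A_51_P128987) lay on the plus strand at chr6:34318338-34318397 and was spotted 10 times on each array, and the *Ugdh* probe (A_55_P2006236) lay at chr5:65804532-65804591. The related pairs were neighbors: 80607 bases of mm9 separated the probes of *Cbr1* and *Cbr3*, and 57705 bases those of *Akr1b3* and *Akr1b8*. RefSeq on GRCm38.p6 lists 1 gene wholly between *Cbr1* and *Cbr3*, Gm5678, which has no probe by that name here, and none between *Akr1b3* and *Akr1b8*.

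Values are of 2 kinds. A signal is the background-subtracted brightness of a spot in scanner units, and a log2 ratio is the difference between 2 arrays after the 75th percentile of each array was subtracted from its log2 signals. The error of a ratio is the one that the scanner software assigned to both spots. It was nearly the same for all these probes, 0.20 to 0.21. It covers the spot only, and neither cultures nor hybridizations. Each member probe was well above background on all 4 arrays, where 52.7% to 59.1% of all probes were, and no spot was saturated. The fibroblast label held, with 12 of 12 fibroblast markers well above background on each array at a summed scaled signal of 581 to 681 (linear, relative to the 75th percentile). The summed level was 0.72 to 1.48 for 7 epithelial and 0.18 to 0.35 for 6 hepatocyte markers. It was 3.23 to 5.05 for 6 leukocyte and 3.22 to 4.29 for 4 endothelial markers. Of these, *Krt8*, *Krt14*, *Cyp3a11*, *Cd68*, *Csf1r*, *Cd14*, *Pecam1* and *Kdr* were well above background on all 4 arrays. Highest were *Kdr* (scaled log2 1.62 to 2.01) and *Cd14* (0.73 to 1.77). *Epcam*, *Cdh1*, *Krt18*, *Cldn4*, *Ttr*, *Apoa1*, *Cyp7a1*, *Ptprc*, *Adgre1*, *Lyz2* and *Tek* were not well above background on any array. Each of the 4 non-fibroblast sums was lowest in the control and the fibroblast sum lowest at 4 h, and their part in the results was not tested. In bulk RNA, fewer cells of a type and less RNA per cell cannot be told apart.

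At 4 h after cOS-pulse the 9 genes went separate ways. *Por* and *Ptgr1* were at least 2-fold above the control and *Cbr3* and *Ephx1* 1.94-fold and 1.63-fold, *Nqo1* and *Akr1b3* lay within the spot error, and *Cbr1*, *Akr1b8* and *Ugdh* were lower. By probe, 5 of 11 were above the control by more than the spot error, 3 below it and 3 within it. Their log2 ratios spanned -0.38 to 1.15. Positive ratios were read by 6 of the 11, against 60.2% of all measured probes, whose quartiles were -0.32 and 0.52. The split in sign was thus near that of all measured probes. At least 2-fold higher were 2 of 11 probes (18.2%), against 6.77% of all 39429 probes, or 8.63% of the 20392 measured on both arrays. At least 2-fold lower was none of the 11, against 4.94%. The median log2 ratio of the member probes was 0.14 and that of all measured probes 0.17.

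**Figure D1:**
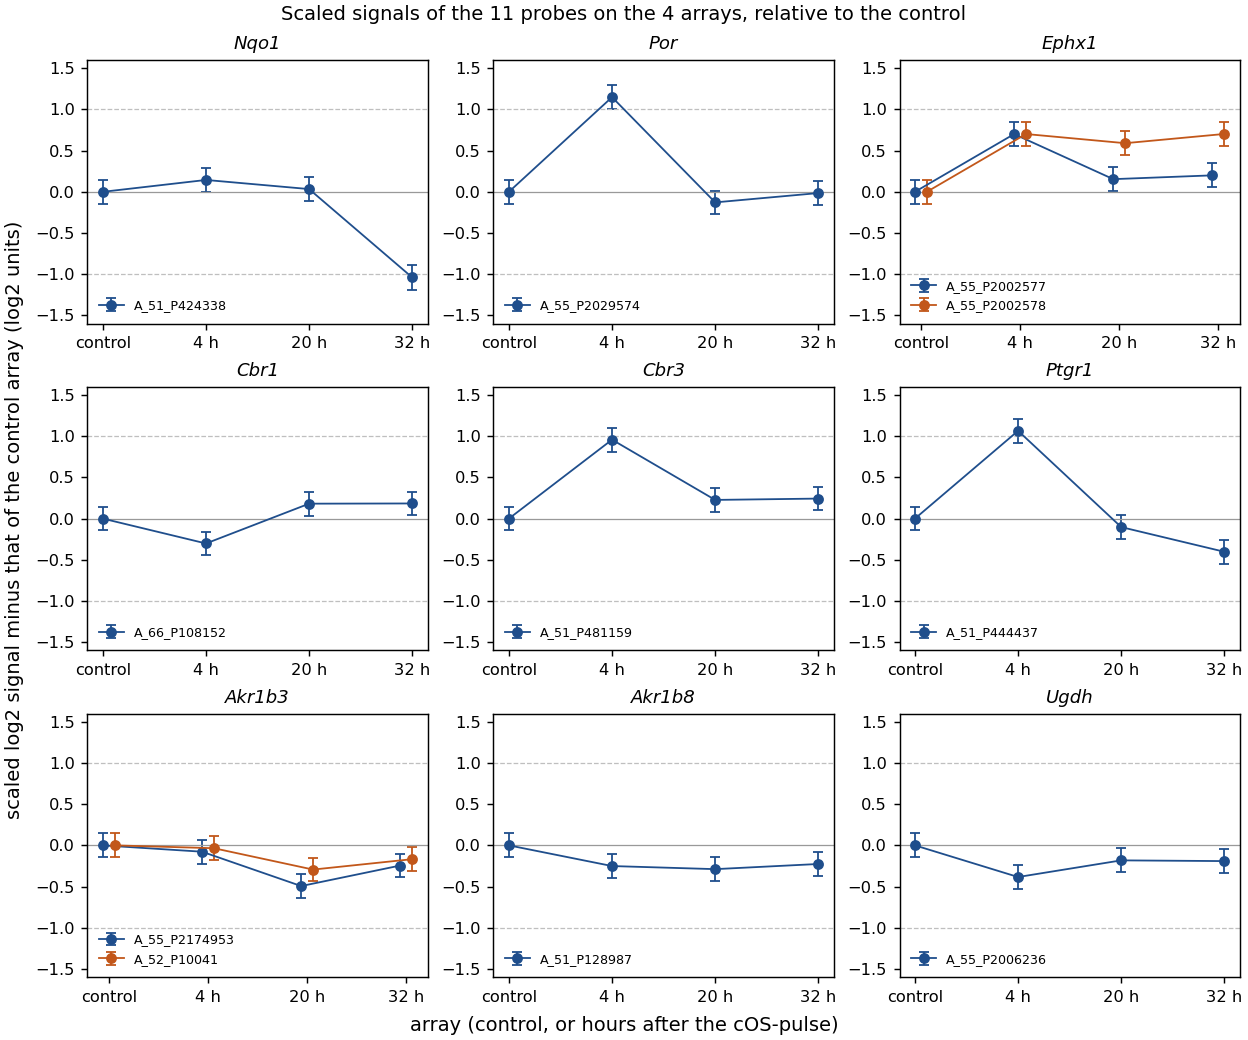
Scaled log2 signal of each member probe minus its value on the control array, on the control array and the 3 arrays after cOS-pulse, 1 panel per gene and 1 color per probe. Bars are the scanner's spot error of each array, dashed lines mark 2-fold, and each point is 1 array. *Por*, *Ptgr1* and *Cbr3* peak at 4 h near 1, *Nqo1* drops to -1.04 at 32 h, and the *Ephx1* probes part after 4 h.

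*Por* gave signals of 12345 in the control, 22544 at 4 h, 14216 at 20 h and 13820 at 32 h. The 4 h array stood apart from the other 3. The log2 ratio to the control was 1.15 ± 0.20 at 4 h (2.22-fold), higher than 93.9% of the measured probes, and -0.13 and -0.02 at 20 h and 32 h, both within the error. After 75th percentile scaling, the order from low to high was 20 h, 32 h, control and 4 h, and the first 3 did not differ beyond the spot error.

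*Ptgr1*, the alkenal reductase, followed *Por* at 4 h and then fell on the other side of the control. Its signals were 14097, 24292, 16520 and 12062, in the order control, 4 h, 20 h, 32 h. The log2 ratios to the control were 1.07 ± 0.20 at 4 h (2.09-fold), -0.10 at 20 h and -0.40 ± 0.20 at 32 h (1.32-fold lower). It was therefore lowest at 32 h, below 20 h by 0.30 on the log2 scale, a ratio of 20 h over 32 h above 95.4% of the measured probes. Among the other members *Ptgr1* lay nearest to *Por* in profile, with a Euclidean distance of 0.33 over the 4 centered log2 values. *Cbr3* followed at 0.43. Many other genes lay nearer, and among 13027 genes *Ptgr1* came 729th and *Cbr3* 1313th.

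*Cbr3* and *Cbr1* lie near each other on the plus strand of chromosome 16, encode closely related carbonyl reductases and differed at 4 h. *Cbr3* gave 10066, 16099, 14827 and 13478 across the control, 4 h, 20 h and 32 h. *Cbr1* gave 4105, 2740, 5859 and 5276 in the same order. The log2 ratio at 4 h was 0.96 ± 0.20 for *Cbr3* and -0.30 ± 0.20 for *Cbr1*, which put them 1.26 ± 0.29 apart. Later they were alike, with 0.23 and 0.18 at 20 h and 0.24 and 0.18 at 32 h, differences of 0.05 and 0.06 with an error of 0.29. *Cbr1* was thus lowest on the 4 h array, on which *Cbr3* was highest.

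*Ephx1*, the microsomal epoxide hydrolase, was read by 2 probes that matched at 4 h and not later. A_55_P2002577 gave 441, 590, 618 and 573 in the order control, 4 h, 20 h, 32 h. A_55_P2002578 gave 3901, 5221, 7393 and 7182 in the same order. Both had a log2 ratio of 0.70 at 4 h (1.63-fold), above 83.3% of the measured probes. At 20 h and 32 h the first read 0.15 and 0.20, within its error of 0.21, and the second 0.59 and 0.70, above 96.7% and 97.3% of the measured probes. The probes differed by 0.44 at 20 h and by 0.50 at 32 h, more than the error of the difference (0.29). Under 75th percentile scaling, whether *Ephx1* stayed above the control beyond the spot error thus depended on the probe read. Over the scalings used here, A_55_P2002577 ran from 0.14 to 0.49 at 20 h and from 0.19 to 0.38 at 32 h. It was always positive, and the upper ends of these ranges were beyond its error. The cause of the difference between the probes was not tested.

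*Akr1b8*, *Akr1b3* and *Ugdh* were not 2-fold from the control at any time. *Akr1b8*, with 10 spots per array, had mean signals of 20912 ± 964, 14455 ± 473, 21538 ± 692 and 20221 ± 737 (SD over 10 spots of 1 array) in the order control, 4 h, 20 h, 32 h. Its log2 ratio to the control was -0.25 ± 0.04 at 4 h, -0.29 ± 0.04 at 20 h and -0.23 ± 0.05 at 32 h (SD over 10 spots), so all 3 arrays after cOS-pulse lay below the control by more than the spots of 1 array differed, except that without scaling the ratio was 0.04 at 20 h and -0.05 at 32 h. Over the 228 probes with 10 spots that were detected in the control and at 4 h, the median SD of the ratio was 0.06, below the 0.20 that the scanner software assigned to a single spot.

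*Akr1b3*, which reduces glucose to sorbitol and also clears lipid aldehydes, was within the spot error of the control at 4 h under 75th percentile scaling, though not under every scaling. Probe A_52_P10041 gave 9703, 7797, 9962 and 9774 across the control, 4 h, 20 h and 32 h, and A_55_P2174953 gave 1049, 818, 937 and 1002. The log2 ratios were -0.03 and -0.08 at 4 h, -0.29 and -0.49 at 20 h, and -0.17 and -0.24 at 32 h, and without scaling the first probe read 0.04 at 20 h. Under this scaling both probes were highest in the control and lowest at 20 h, whereas with median scaling, spike-in scaling and no scaling, as in the signals, both were lowest at 4 h. Their ratios did not differ beyond the error at any time.

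*Ugdh* gave the signals 44779, 28234, 49680 and 44383 in the order control, 4 h, 20 h, 32 h. It had the lowest log2 ratio of the 11 probes at 4 h, -0.38 ± 0.20 (1.31-fold lower), which 22.8% of the measured probes fell below. At 20 h and 32 h it read -0.18 and -0.19, within the error.

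*Nqo1*, the quinone reductase, lay within the spot error of the control at 4 h and was 2-fold lower at 32 h. Its signals were 453 in the control, 412 at 4 h, 583 at 20 h and 249 at 32 h. The 32 h array was the low one, and the other 3 did not differ beyond the spot error after 75th percentile scaling. The log2 ratio to the control was 0.14 ± 0.21 at 4 h, 0.03 ± 0.21 at 20 h and -1.04 ± 0.21 at 32 h (2.06-fold lower), below all but 1.37% of the measured probes. A single probe and a single spot per array carried this result.

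At 20 h after cOS-pulse no member probe was 2-fold from the control, where 0.763% of all probes were at least 2-fold higher and 1.87% lower. Above the control by more than the spot error were 2 probes (*Ephx1* A_55_P2002578 and *Cbr3*), below it 3 (both of *Akr1b3*, and *Akr1b8*), and 6 lay within it. The median log2 ratio of the members was -0.10, that of all measured probes -0.003. Positive ratios were read by 5 of the 11, against 49.5% of all measured probes, whose quartiles were -0.20 and 0.17. At 32 h, 1 probe was at least 2-fold lower (*Nqo1*), against 1.43% of all probes, and none at least 2-fold higher, against 1.15%. The same 2 probes were above the control beyond the error, 4 were below (*Nqo1*, *Ptgr1*, *Akr1b3* A_55_P2174953 and *Akr1b8*) and 5 within. The median was -0.17, against -0.01 for all measured probes. At 32 h 4 of the 11 ratios were positive, against 49.1% of all measured probes, whose quartiles were -0.20 and 0.18. All 3 comparisons share the control array.

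Between 20 h and 32 h, the comparison that does not use the control, *Nqo1* stood out among the members. Its log2 ratio of 20 h over 32 h was 1.07 ± 0.21 (2.10-fold), the 33rd highest of 20247 measured probes. It was the 1 member at least 2-fold higher at 20 h, where 0.497% of all probes were, and none was at least 2-fold lower, against 1.06%. *Ptgr1* was also higher at 20 h beyond the spot error (0.30), *Akr1b3* A_55_P2174953 was lower (-0.25), and the other 8 probes lay between -0.13 and 0.01. The ratios of all measured probes between these arrays had a robust SD of 0.14, against 0.61 at 4 h over the control.

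**Figure D2:**
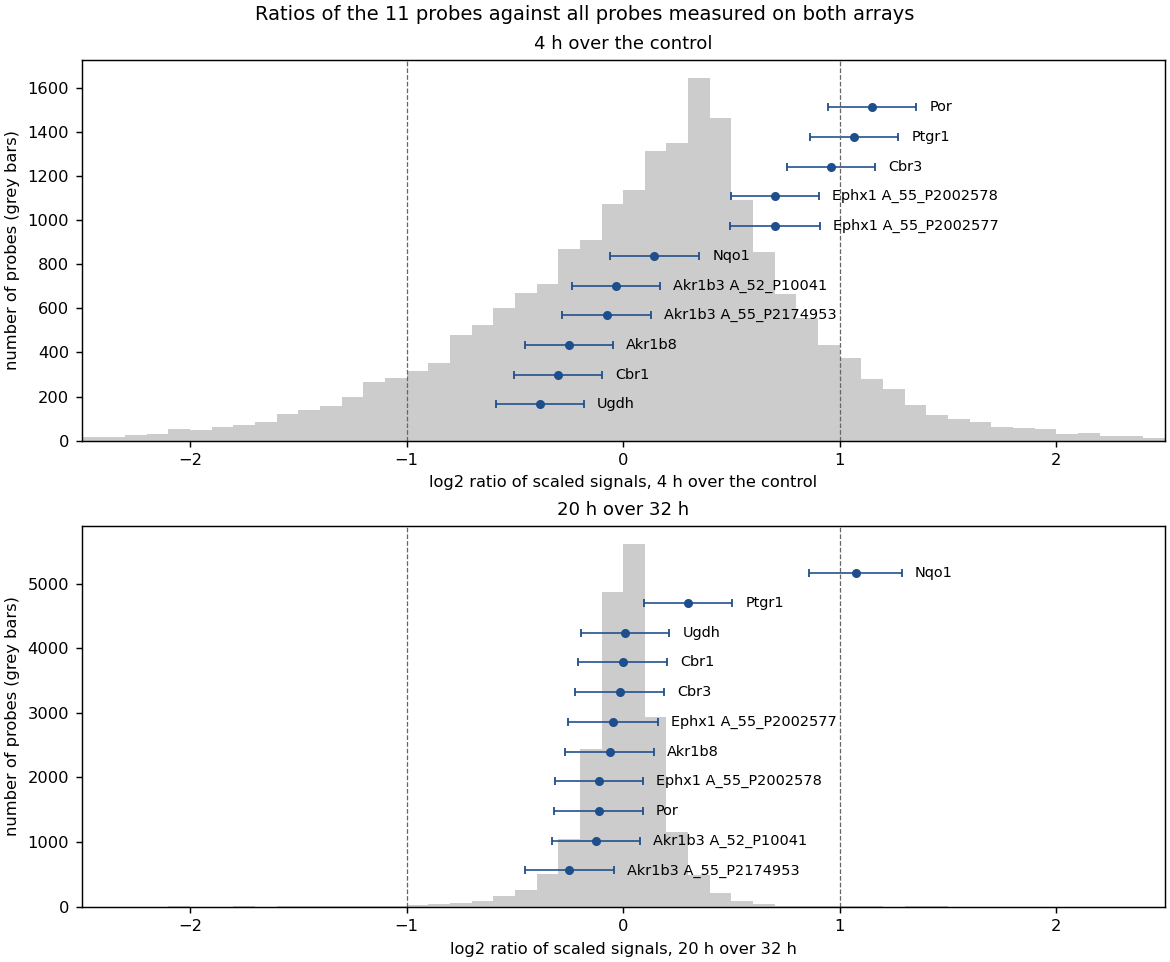
Log2 ratios of the 11 member probes (points, with the spot error as bars, spread in height only for legibility) over the histogram of all probes measured on both arrays (grey bars, number of probes per 0.1), for 4 h over the control and 20 h over 32 h. Dashed lines mark 2-fold. At 4 h the members spread from -0.38 to 1.15 across a broad distribution, and between 20 h and 32 h all but *Nqo1* (1.07) and *Ptgr1* (0.30) sit in its narrow center or left of it.

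The ratios at 4 h depend on how the arrays are put on 1 scale. Scaling by the 75th percentile put the median of all measured probes at 0.17, and other scalings moved it to between -0.23 (spike-in probes) and 0.05 (75th percentile of the detected probes). Of all probes at least 2-fold from the control at 4 h, 57.8% were higher under the 75th percentile and 25.6% to 46.7% under the other scalings. Over the 6 scalings the log2 ratio at 4 h ran from 0.75 to 1.15 for *Por*, from 0.66 to 1.07 for *Ptgr1*, from 0.56 to 0.96 for *Cbr3* and from 0.30 to 0.70 for both *Ephx1* probes, always positive. It ran from -0.71 to -0.30 for *Cbr1*, from -0.79 to -0.38 for *Ugdh* and from -0.65 to -0.25 for *Akr1b8*, always negative. It ran from -0.44 to -0.03 for *Akr1b3* A_52_P10041 and from -0.48 to -0.06 for A_55_P2174953, both below the control by more than the spot error with median scaling, spike-in scaling and no scaling. *Nqo1* changed sign, from -0.26 to 0.14. The number of member probes at least 2-fold higher was therefore 2 under the 75th percentile of all probes, 1 under that of the detected probes and 0 under the other 4 scalings. Relative to the median of all measured probes, 5 of the 11 were higher under each scaling but quantile normalization, where *Nqo1* made it 6. *Nqo1* at 32 h ran from -1.05 to -0.86 and its ratio of 20 h over 32 h from 1.04 to 1.23.

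**Figure D3:**
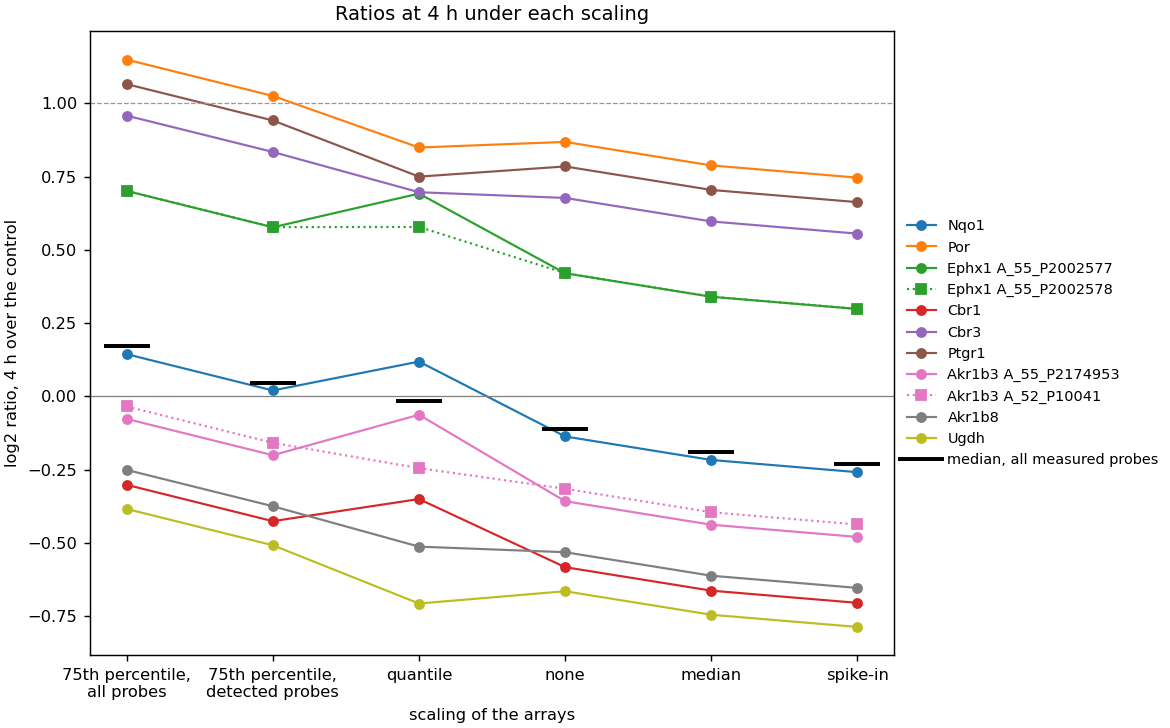
Log2 ratio of 4 h over the control for each member probe (lines) under 6 scalings of the arrays (horizontal axis), with the median of all measured probes as a black dash and 2-fold as a dashed line. Most ratios are highest under the 75th percentile of all probes, and *Por* is past 2-fold under both 75th percentile scalings.

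For the members at the ends of the range at 4 h, and for *Nqo1*, the 250 bases before the start of the gene are shown, from RefSeq on GRCm38.p6 (8 of the 9 genes matched, *Akr1b3* did not). Capitals mark matches, on either strand, to 4 short motifs: TGACNNNGC (core of the antioxidant response element, bound by NRF2), GCGTG (core of the xenobiotic response element), CACGTG (E-box, bound by BMAL1:CLOCK) and GAANNTTC (heat shock element core, bound by HSF1).
Por, chr5:135688895-135689144, plus strand: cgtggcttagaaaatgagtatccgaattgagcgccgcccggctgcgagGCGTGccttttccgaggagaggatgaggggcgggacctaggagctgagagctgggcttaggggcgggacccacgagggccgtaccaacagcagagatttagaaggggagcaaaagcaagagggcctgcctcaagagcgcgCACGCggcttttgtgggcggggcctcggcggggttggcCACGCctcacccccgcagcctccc
Ptgr1, chr4:58987079-58987328, minus strand: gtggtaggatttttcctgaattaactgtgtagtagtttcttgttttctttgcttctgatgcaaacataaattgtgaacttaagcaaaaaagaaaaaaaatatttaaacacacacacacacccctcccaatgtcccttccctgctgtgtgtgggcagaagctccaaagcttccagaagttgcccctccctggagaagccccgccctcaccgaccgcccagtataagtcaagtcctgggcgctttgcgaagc
Cbr3, chr16:93682969-93683218, plus strand: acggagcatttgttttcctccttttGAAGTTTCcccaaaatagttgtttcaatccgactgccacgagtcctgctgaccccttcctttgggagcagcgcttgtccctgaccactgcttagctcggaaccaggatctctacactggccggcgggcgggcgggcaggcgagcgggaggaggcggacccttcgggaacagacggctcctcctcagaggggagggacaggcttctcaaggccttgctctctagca
Ephx1, chr1:181017570-181017819, minus strand: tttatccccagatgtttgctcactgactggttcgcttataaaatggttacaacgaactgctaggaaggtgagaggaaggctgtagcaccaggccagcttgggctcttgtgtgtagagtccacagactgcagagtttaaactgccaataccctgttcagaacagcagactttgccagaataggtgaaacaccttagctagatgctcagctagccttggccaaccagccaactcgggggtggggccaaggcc
Ugdh, chr5:65435843-65436092, minus strand: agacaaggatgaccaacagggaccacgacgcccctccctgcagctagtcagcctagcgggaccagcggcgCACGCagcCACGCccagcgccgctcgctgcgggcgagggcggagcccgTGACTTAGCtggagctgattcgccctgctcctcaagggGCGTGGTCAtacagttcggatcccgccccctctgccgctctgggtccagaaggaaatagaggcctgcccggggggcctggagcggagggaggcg
Nqo1, chr8:107403206-107403455, minus strand: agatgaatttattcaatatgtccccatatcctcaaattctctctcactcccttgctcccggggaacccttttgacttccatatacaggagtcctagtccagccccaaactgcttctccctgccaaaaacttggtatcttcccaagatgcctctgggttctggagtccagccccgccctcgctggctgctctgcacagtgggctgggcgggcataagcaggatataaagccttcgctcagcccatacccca

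Positions are counted from the start of the gene, with negative values before it, and the search ran on to 50 bases after the start. *Por* held GCGTG 3 times, at -202, -62 and -24, and *Cbr3* held GAANNTTC once, at -225. *Ugdh*, the lowest member at 4 h, held TGACNNNGC 2 times, at -132 and -94, and GCGTG 3 times, at -180, -172 and -94, where the match at -94 overlaps that of TGACNNNGC. Not shown are *Cbr1*, with GCGTG at -43 and -7, and *Akr1b8*, with GCGTG at -26. *Nqo1*, *Ptgr1* and *Ephx1* held none of the 4 in this window, and no member searched held CACGTG. Bases outside the window were not searched. Of all 32851 promoters of this length, 12.4% held TGACNNNGC, 32.4% GCGTG, 7.15% CACGTG and 7.86% GAANNTTC. The matches are letters in a window and say nothing of binding.

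The members can be read against other genes of their families, taken with 1 probe per gene, the brightest. The lists of these genes were also chosen with earlier results of these data known, and some genes stand in more than 1 list. Of all 19302 genes detected on at least 1 array, 10.6% were at least 2-fold higher at 4 h and 7.92% at least 2-fold lower, with a median log2 ratio of 0.17. Next to *Nqo1* stand 13 quinone and other NAD(P)H reductases, of which 2 were at least 2-fold higher, among them *Txnrd1* (thioredoxin reductase, 1.77), and none lower. Over the 6 scalings of the arrays 1 to 2 of this list were higher and 0 to 4 lower. The second quinone reductase, *Nqo2*, read -0.41, and the median of the list was -0.27.

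*Por* was set beside other genes of electron transfer and beside the proteins that take its electrons. Of 14 detected genes of POR-type and cytochrome b5 electron transfer, 0 were 2-fold from the control at 4 h, with log2 ratios from -0.94 to 0.80, and 0 to 3 were at least 2-fold lower over the 6 scalings. Of 12 detected acceptors of POR electrons, 1 was at least 2-fold higher, the inducible heme oxygenase *Hmox1* (3.29, and 2.91 by its second probe), and 1 lower, the constitutive *Hmox2* (-1.31, and -1.35). At 20 h and 32 h 3 of 12 acceptors (25%) were at least 2-fold above the control, against 1.28% and 1.96% of all genes. These 3 are named here after their values were seen, and for them the pulse and the later hour cannot be told apart. They were *Cyp51* (1.44 and 1.62) and squalene epoxidase *Sqle* (1.39 and 1.67), both of cholesterol synthesis, and the retinoic acid hydroxylase *Cyp26b1* (1.24 and 1.31), while *Por* itself read -0.13 and -0.02.

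Other genes listed as carbonyl reductases, short-chain dehydrogenases or aldo-keto reductases were mostly below the control at 4 h, where *Cbr3* was above it. Of 20 detected carbonyl reductases and short-chain dehydrogenases, 6 were at least 2-fold lower and 0 higher, led by *Cbr4* (-2.19, and -2.02 by its second probe), *Dhrs13* (-1.72), *Rdh14* (-1.11) and *Dhrs7b* (-1.06), and 7 of 20 were above the control, with a median of -0.38. Of 9 detected aldo-keto reductases outside *Akr1b3* and *Akr1b8*, 2 were at least 2-fold lower, *Akr1c18* (-1.12) and *Kcnab1* (-1.11), and 0 higher. Only *Akr1a1*, at 0.55, was positive among the 8 measured, and the median was -0.80. Over the 6 scalings 2 to 6 aldo-keto reductases and 6 to 7 carbonyl reductases were at least 2-fold lower. The median of the aldo-keto reductases ran from -1.20 to -0.80 and that of the carbonyl reductases from -0.78 to -0.38. *Akr1c18* was, like *Nqo1*, lower at 32 h than at 20 h, with a log2 ratio of 20 h over 32 h of 1.10.

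Beside *Ptgr1*, the list of prostaglandin and alkenal reductases gave 8 detected genes, among them the dehydrogenases *Adh1*, *Adh5*, *Adh7* and *Sord*. Of the 8, 1 was at least 2-fold lower, *Ptgr2* (-1.18, and -0.79 and -1.08 by its other probes). Higher by a bound was 1, *Adh1*, seen above background on the 4 h array alone. It was read there as at least 2.08-fold higher, and was past 2-fold under this scaling alone of the 6. Of 4 detected epoxide hydrolases beside *Ephx1*, none was 2-fold from the control, with ratios from -0.73 to 0.89, and 0 to 2 were at least 2-fold lower over the 6 scalings. Of 16 detected aldehyde dehydrogenases, 1 was higher (*Aldh8a1*, 1.27, past 2-fold in 3 of 6 scalings) and 1 lower (*Aldh3b1*, -1.07, in 6 of 6). Beside *Ugdh*, 18 UDP-sugar and glucuronidation genes were detected, of which 2 were lower, among them *Galk1* (-1.54), an enzyme of galactose use, and 1 higher, the hyaluronan synthase *Has2* (1.15, past 2-fold in 2 of 6 scalings), which uses the product of UGDH and stayed at 0.97 and 1.13 at 20 h and 32 h.

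NADPH is the electron source of most members. Of 14 detected genes of NADPH supply, 2 were at least 2-fold higher at 4 h, the mitochondrial folate enzyme *Mthfd2* (2.66) and *Pgd* of the pentose phosphate pathway (1.15, past 2-fold in 2 of 6 scalings), and none lower, while the list median was -0.12. Of 21 detected reference NRF2 targets outside the members, 11 were at least 2-fold higher (9 to 11 over the 6 scalings) and 0 lower. The cystine transporter subunit *Slc7a11*, above background at 4 h alone, was at least 32.4-fold higher, and the measured ratios were led by *Hmox1* (3.29), the autophagy receptor *Sqstm1* (2.14), the glutathione synthesis subunit *Gclc* (1.89) and *Txnrd1* (1.77). All 18 measured were above the control (13 to 18 over the 6 scalings), with a median of 1.04 (0.63 to 1.04 over the 6 scalings). *Por* and *Ptgr1* at 4 h lay near this median, *Nqo1* (0.14) between the 2 lowest measured, *Gstm3* (0.12) and *Gstm1* (0.15), and *Cbr1*, *Akr1b3*, *Akr1b8* and *Ugdh* below all of them. Of 8 detected AhR battery genes, 1 was at least 2-fold higher, *Ahr* itself (1.05, its other probe being above background at 4 h alone), a count that was 0 under each of the other 5 scalings, and *Cyp1a1* and *Cyp1a2* were not well above background on any array.

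**Figure D4:**
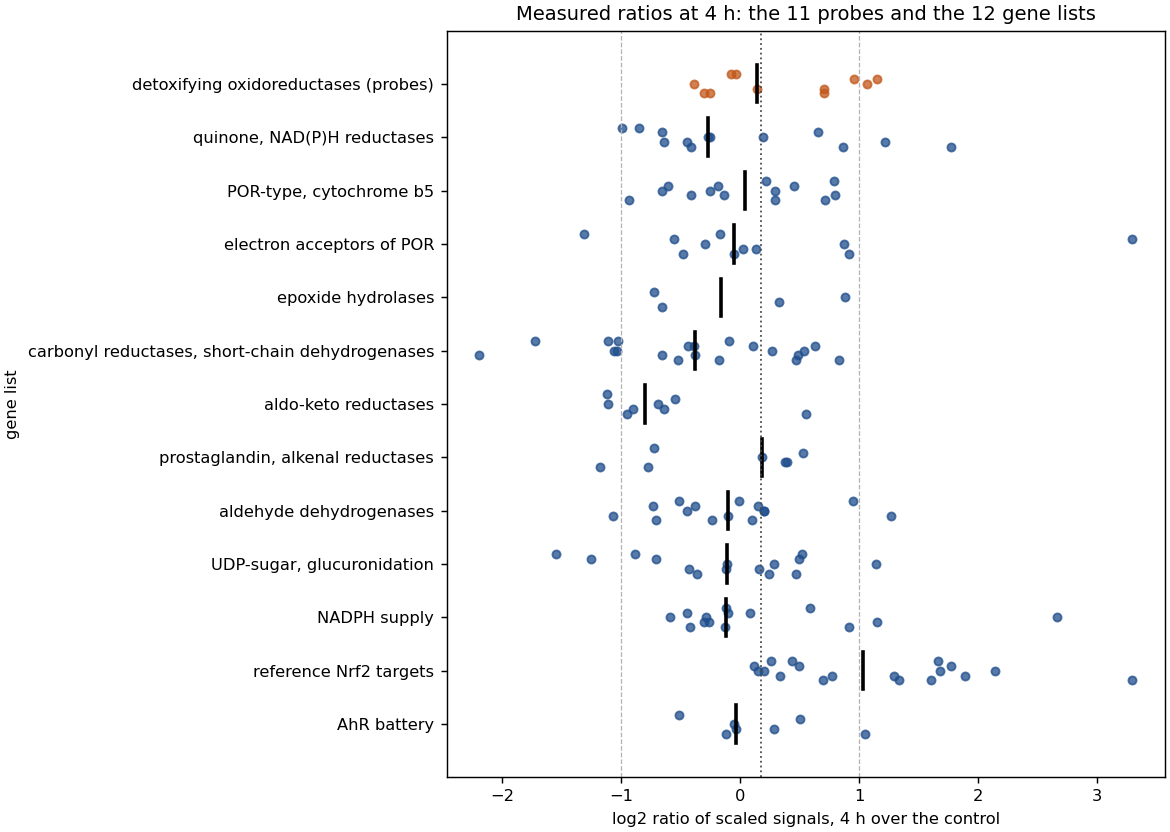
Measured log2 ratios of 4 h over the control for the 11 member probes (orange) and for the genes of 12 lists (blue, 1 probe per gene), 1 row per list, with the median of each row as a black bar, the median of all genes (0.17) as a dotted line and 2-fold as dashed lines. The reference NRF2 targets lie to the right with a median of 1.04, the aldo-keto reductases to the left at -0.80, and the members spread between them. Some genes, such as *Hmox1* and *Txnrd1*, stand in more than 1 list.

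Profiles like those of *Por* and *Nqo1* were sought among 13027 genes well above background on all arrays, as the Euclidean distance between the 4 log2 values after centering each gene. Among the nearest to *Por* were A830049F12Rik (0.04), *Ttll11* (0.05), BC040756 (0.05) and *Ggnbp1* (0.06). Nearest to *Nqo1* were *Prr5* (0.13), E130306D19Rik (0.38), *Gdf7* (0.38), *Flt3* (0.39) and Hist1h2an (0.39). *Nqo1* thus had 1 close neighbor, *Prr5*, whose log2 ratios to the control were 0.16, -0.07 and -0.98 at 4 h, 20 h and 32 h. The distances rest on 4 arrays and describe these arrays only.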

How the data were processed

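The authors hybridized Cy3-labelled cRNA of NIH-3T3:Per2-Luc fibroblasts to one-color Agilent Mouse GE 4x44K v2 arrays, 1 per condition. They deposited the output of Feature Extraction 10.7.3.1: spot intensities on an mm9 annotation after subtraction of local background and spatial detrending, the flags and errors of each spot, and a table of signal values equal to these intensities divided by 1 constant per array (checked over 44397 spots). Log2 intensity was averaged over the unflagged spots of each probe (125 to 161 of 43020 spots flagged), and the 75th percentile over 39429 non-control probes was subtracted. Detection required the well-above-background flag on 50% or more of the spots. Ratios are measured if both arrays detected the probe, and bounds if 1 did. SAM (paired), named in the methods without the pairs, cannot be run on single arrays. Members and the 12 gene lists were chosen with earlier results of these data known. Text names every member probe, the genes of each list at least 2-fold from the control at 4 h (up to 4), and the 5 nearest profiles to *Nqo1* and *Por*, except for some genes that are not reported here. Alternatives were 5 other scalings, normexp (offset 50), other detection rules, flagged spots kept, the deposited table, thresholds of 1.5-fold and 3-fold and 1 value per gene. Spike-in scaling without 1 of 8 probes was chosen after seeing the data. The steps were tested on simulated data. Python 3.11.15, numpy 2.4.6, pandas 2.3.3, R 4.3.3 and limma 3.58.1 were used. Protein identity between members was not analysed here. The number of arrays limits the precision.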

Additional observations from a re-analysis of the deposited data

Results flagged for a closer look

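*Ptgr1* lay on opposite sides of the control at 4 h and 32 h after cOS-pulse, each time by more than the spot error, with log2 ratios of 1.07 and -0.40. Both are ratios of single arrays to the same control array, and the difference between them was not tested.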

How the results depend on the processing

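Of 484 values of single member probes under 11 alternatives, 37 changed sign, 35 of them ratios within the spot error of 0 under the 75th percentile scaling. The other 2 were *Akr1b3* A_52_P10041 (0.038) and *Akr1b8* (0.043) at 20 h without scaling, against -0.29 for both. Besides these 2, 59 values moved by more than the spot error, 50 of them among the 121 at 4 h. Without scaling, the median of the 11 probes at 20 h became 0.23. The median at 4 h became -0.22 with median scaling, -0.26 with spike-in scaling, -0.14 without scaling and -0.25 with spike-in scaling without 1 probe, which itself read -0.74 and -0.91 at 20 h and 32 h. The 2 probes at least 2-fold higher at 4 h became 1 with the 75th percentile of probes detected on all arrays and 0 with median scaling, quantile normalization, spike-in scaling with or without that probe, and no scaling. The cause was not tested. The threshold of 1.5-fold gave 5 at 4 h and 1 each at 20 h and 32 h (*Ephx1* A_55_P2002578), and 3-fold gave 0 at 4 h. *Nqo1* at 32 h fell short of 2-fold narrowly with quantile normalization (count 0), with spike-in scaling, no scaling and normexp (count 0 each, log2 ratio -0.90, -0.86 and -0.90) and at 3-fold (0). Its ratio of 20 h over 32 h fell short with normexp (0.88, count 0) and at 3-fold (0). The share of probes past 2-fold that were higher was 29.0% at 20 h (27.7% to 65.4% over the other scalings), 44.4% at 32 h (43.3% to 62.7%) and 31.9% for 20 h over 32 h (31.7% to 42.1%). No paired analysis was possible because each condition has 1 array.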

Other observations

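Some relatives of the members were 2-fold from the control late and not at 4 h, and are named here after their values were seen. Of all genes, 1.28% were at least 2-fold higher and 3.13% lower at 20 h, and 1.96% and 2.42% at 32 h. The NADPH-producing isocitrate dehydrogenase *Idh1* read 1.10 at 20 h and 1.25 at 32 h on the log2 scale (-0.29 at 4 h), and *Aldh1l1*, which makes NADPH from formyltetrahydrofolate, read 1.29 and 1.36 (-0.10 at 4 h). *Hsd17b7*, of cholesterol and steroid synthesis, read 1.04 and 1.33 by its brightest probe (0.54 at 4 h), 1.19 and 1.42 by another (0.57 at 4 h) and 0.21 and 0.47 by the last (0.05 at 4 h). The glutathione conjugate transporter *Abcc1* read -1.31 and -1.33 (0.33 at 4 h). The glucuronosyltransferase *Ugt1a10*, which shares exons with other *Ugt1a* genes, read -1.11 and -0.73 (0.49 at 4 h), and its other probe -1.38 and -0.93. Over the 6 scalings *Ugt1a10* at 20 h ran from -1.12 to -0.78 and *Abcc1* from -1.36 to -0.98, while *Idh1*, *Aldh1l1* and *Hsd17b7* stayed past 2-fold by their brightest probes. Each is a ratio of single arrays to the 1 control, labelled 4 h, and none was tested. The pulse and the longer time in culture cannot be told apart in them.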
